A study of Mus musculus with 42 samples.

Results

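Tumours of the mouse pancreatic adenocarcinoma line Pan02, grown under the skin of C57BL/6 mice, were compared between day 14 and day 7 of daily dosing with vehicle. The day 14 group is 3 tumours given vehicle once daily for 14 days and collected at 0 h on day 14. The day 7 group is 3 tumours given vehicle once daily for 7 days and collected at 0 h on day 7. The members were taken by group label, 6 libraries of 42 in the series. Each library is 1 animal of its own. The labels' protocols name PBS as the counterpart of BXCL701, a dipeptidyl peptidase inhibitor that the other arm of the study received. A day 14 tumour had both grown for longer and received more vehicle doses than a day 7 tumour, and these cannot be told apart. Tumour volumes were not analysed here.

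A subcutaneous tumour is a mixture of malignant cells, infiltrating leukocytes, fibroblasts, vessels and, at its edge, skin and body wall muscle. Interferon gamma made by T and NK cells induces guanylate-binding proteins, chemokine ligands of CXCR3 and antigen presentation genes. Hypoxic cells stabilise hypoxia-inducible factors, which switch on genes of glucose use and of mitochondrial turnover. In bulk RNA, fewer cells of a type and less RNA per cell cannot be told apart.

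Values are those of the deposited gene table, scaled estimates of reads per gene whose sums differ little between the 6 libraries (20.2 to 24, in units of 1e6). The number of reads behind them is unknown. The 6 libraries correlated with each other at 0.913 to 0.974 over the genes tested, which are those with a value of at least 10 in 3 or more of the 42 libraries. Differences are day 14 minus day 7 on the log2(value + 1) scale with their standard error (SE) from limma, which understates the change of low genes. The epithelial keratins of the tumour line were present in every library, with Krt18 at 11791, 13513 and 11627 in day 14 tumours and 14539, 6259 and 9228 in day 7 tumours. Of 6 pancreatic acinar genes, 1 passed the filter on low values.

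Of 16613 genes tested, 0 passed an adjusted p of 0.05 with limma and Benjamini-Hochberg adjustment (0% in either direction). The smallest adjusted p was 0.0968. At an unadjusted p under 0.05, 1513 genes stood higher on day 14 (9.11%) and 1118 stood lower (6.73%). These counts depended on single libraries. They were 368 and 310 without day 14 replicate 2, and 134 and 165 without the replicate 2 libraries of both days. Without day 14 replicate 3 they were 2014 and 1849. The median difference over all genes was -0.04, with 46.9% of genes above 0 and 53% below 0. In 8.2% of genes all 3 day 14 tumours exceeded all 3 day 7 tumours, and in 7.18% all 3 lay below. An exact permutation test of 3 tumours against 3 cannot give a two-sided p below 0.1.

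The T cell, B cell and class II sums were low in day 14 replicates 1 and 2, while day 14 replicate 3 lay within the day 7 range. The interferon gamma sums did not split in this way, since all 3 day 14 tumours lay below all 3 day 7 tumours. The NK cell sums of the 2 days overlapped, but in day 14 replicates 1 and 2 most of the sum came from 1 gene, Klra4. Without day 14 replicate 3, 677 genes rose on day 14 (4.08%) and 619 fell (3.73%) at an adjusted p under 0.05 in the same limma model. Without day 7 replicate 3, 1 gene passed, and without any other single library 0 did. Calls in the fit without day 14 replicate 3, here and below, rest on leaving out that tumour and are no separate result. Day 14 replicate 3 also had the highest sum of skin genes. The 12 keratinocyte genes summed to 2518, 2447 and 27575 in day 14 tumours and to 2846, 3992 and 18624 in day 7 tumours. Replicate 3 of each day was far above the others. With skin, muscle and fat levels as covariates the median difference of the T cell genes below was -0.91, and 0 genes passed.

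**Figure D1:**
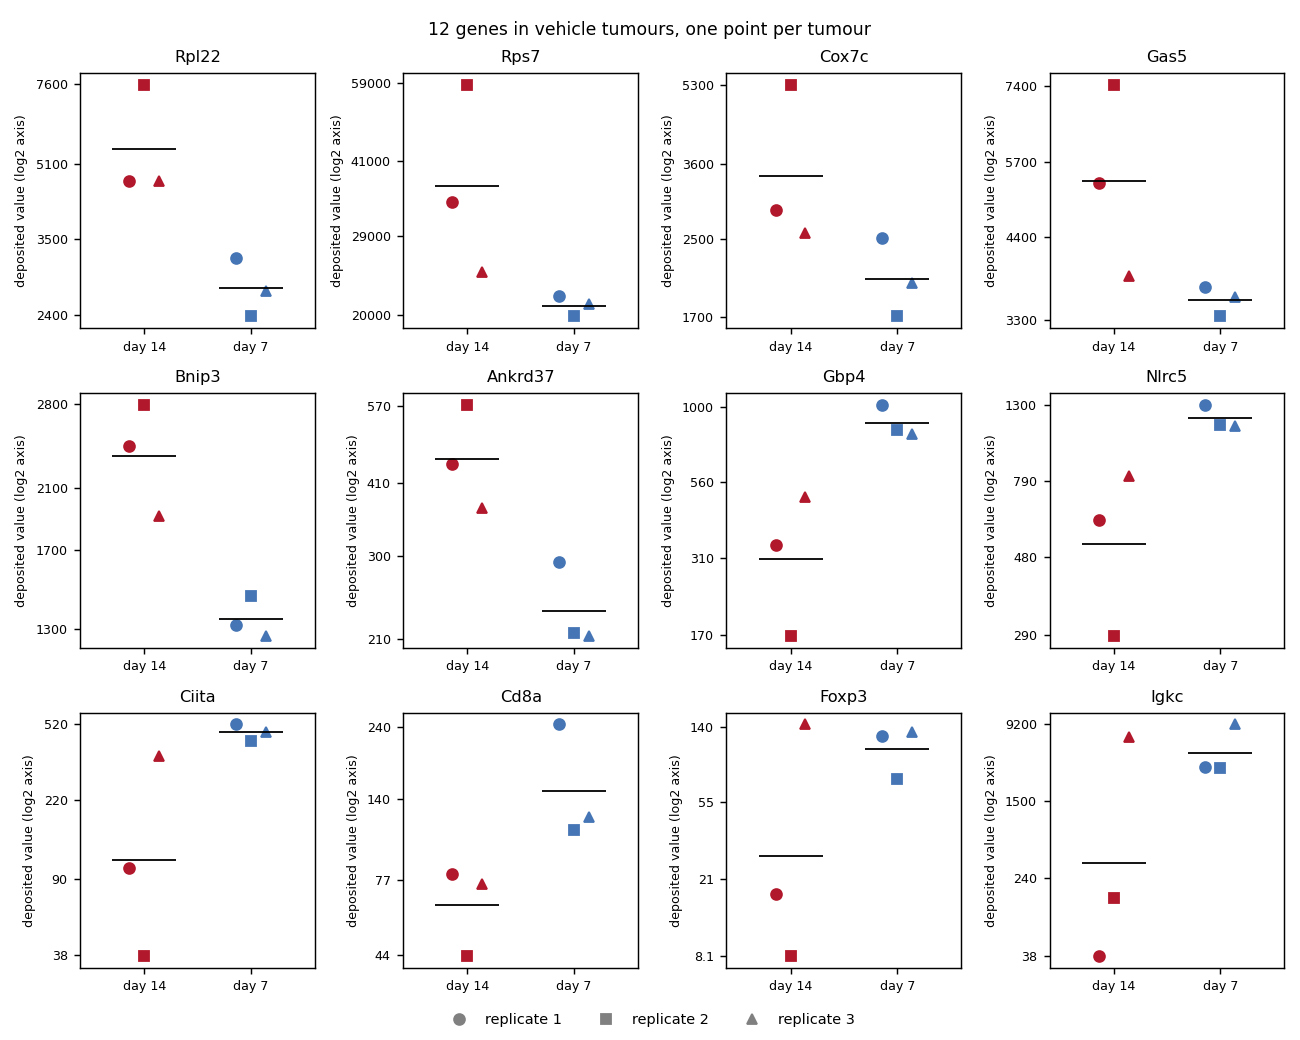
Deposited values (vertical axis, log2 spacing) of 12 genes in the 3 day 14 and the 3 day 7 vehicle tumours; each symbol is a tumour and each line the mean on the log2(value + 1) scale. Rpl22 was 4686 to 7564 on day 14 and 2383 to 3188 on day 7, and for Ciita, Foxp3 and Igkc the triangle of day 14 replicate 3 sits near or among the day 7 points.

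Genes of T cells stood lower on day 14 in the fitted difference without passing the test. All 20 T cell genes had a difference below 0 (median -0.95), 2 of 20 lay below without overlap beside 7.18% of all genes, and 0 passed (0% of all genes did). Cd8a, which encodes the CD8 alpha chain of cytotoxic T cells, was 80.1, 43.6 and 74.4 in day 14 tumours and 244.6, 111.5 and 122.3 in day 7 tumours. These groups did not overlap, with a difference of -1.22 ± 0.46 (SE, adjusted p = 0.196 by limma). Icos, a costimulatory receptor of activated T cells, was 21.8, 19.6 and 86.8 on day 14 against 76.4, 84.5 and 123.3 on day 7. Its highest day 14 tumour was replicate 3, which overlapped the day 7 range (difference -1.44 ± 0.45, adjusted p = 0.144 by limma). Without that replicate 8 of the 20 genes fell, beside 3.73% of all genes in that fit, Icos by 2.11, Cd6 by 2.10 and Cd3e by 1.58. The median of the list was -1.39 without day 14 replicate 3, -0.35 without day 14 replicate 2, and -0.63 without day 14 replicate 2 and day 7 replicate 2 together. With an index of transcript length, defined further on, entered as a covariate, the median of the 20 genes was -1.09.

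Foxp3, the defining transcription factor of regulatory T cells, was 17.5, 8.08 and 143.8 in day 14 tumours and 124.9, 73.1 and 131.6 in day 7 tumours. The third day 14 tumour was the highest of all 6, and the other day 14 tumours were the lowest (difference -1.89 ± 0.59, adjusted p = 0.147 by limma). Il2ra, the high-affinity interleukin-2 receptor chain of the same cells, was likewise lowest in day 14 replicates 1 and 2, at 26.8, 18.9 and 106.6 on day 14 and 98.9, 92.5 and 155.3 on day 7. Of 8 regulatory T cell genes 7 lay below 0 (median -0.92). Leaving out day 14 replicate 3, the highest day 14 tumour for Foxp3 and Il2ra, lowers their day 14 means by construction. In that fit Foxp3 fell by 3.05 and Il2ra by 2.27 among 4 of 8 that passed, beside 3.73% of all genes. Without day 14 replicate 2 Foxp3 was at -1.05 (adjusted p = 0.891 by limma), and the list's median was -1.60 without replicate 3. In vehicle tumours of days 1, 7 and 14, Foxp3 averaged 6.78 ± 0.49, 6.75 ± 0.46 and 4.86 ± 2.08 (log2 level, SD, n = 3 each).

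All 10 checkpoint and exhaustion genes lay below 0 (median -1.09), and 1 of 10 lay below without overlap, near the 7.18% of all genes. The median was -0.48 without day 14 replicate 2 and -0.71 without the replicate 2 libraries of both days. The gene without overlap was Cd274, which encodes the inhibitory ligand PD-L1, at 254.4, 125.7 and 363.7 on day 14 against 580.9, 442.3 and 517.4 on day 7 (-1.17 ± 0.43, adjusted p = 0.188 by limma; -0.74 without day 14 replicate 2). Pdcd1, its receptor PD-1, was 46.8, 25.3 and 61.0 on day 14 and 163.7, 56.7 and 96.8 on day 7, which overlapped. Effector genes were less even. Ifng itself was low in all tumours, at 8.86, 9.98 and 6.58 on day 14 and 13.1, 7.83 and 5.79 on day 7, a difference of -0.01 ± 0.70. Of 11 cytotoxic effector genes 10 lay below 0 (median -0.55, and -0.26 without day 7 replicate 1 or -0.27 without day 14 replicate 2). Gzmk, a granzyme, was the 1 of 11 without overlap, near the 7.18% of all genes, at 1.02 to 6.72 on day 14 and 8.64 to 13.1 on day 7. Its day 14 values lay below the filter value of 10 and its day 7 values near it.

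Of 12 NK cell genes 11 lay below 0 (median -0.73), yet their sums were 369, 438 and 386 on day 14 and 373, 372 and 326 on day 7. The median was -0.36 without day 14 replicate 1, -0.45 without day 7 replicate 1 and -1.37 without day 14 replicate 3. Klrc1 and Klri2, killer cell lectin-like receptors, were the 2 of 12 that lay below without overlap, beside 7.18% of all genes. Klrc1 was 10.88, 8.2 and 18.99 on day 14 and 40.2, 35.9 and 31.5 on day 7 (-1.50 ± 0.44, adjusted p = 0.135 by limma). Klra4, an activating Ly49 receptor, was the only member above 0, at 272.4, 330.4 and 102.5 on day 14 against 68.4, 147.6 and 95.3 on day 7. It made up most of the NK cell sums of day 14 replicates 1 and 2 (272.4 of 369 and 330.4 of 438). Those sums therefore do not describe the other 11 genes.

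B cell and plasma cell genes had the widest spread among day 14 tumours. Igkc, the kappa light chain constant region, was 38.1, 150.3 and 6755 in day 14 tumours and 3375, 3236 and 9168 in day 7 tumours. Day 14 replicates 1 and 2 were below every day 7 tumour and replicate 3 was within their range, and the difference of -3.76 had an SE of 1.57 (adjusted p = 0.235 by limma; -2.20 without day 14 replicate 1). Jchain, which joins secreted antibody multimers, was likewise lowest in day 14 replicates 1 and 2, at 9.61, 19.1 and 344.4 on day 14 and 230.5 to 418.1 on day 7. Without day 14 replicate 3 Igkc fell by 5.92 and Jchain by 4.54. Of 11 members tested of 13 listed, 9 lay below 0 (median -1.12). That median was -0.17 in the log2 FPKM table, -0.60, -0.23 and -2.10 without day 14 replicates 1, 2 and 3, -0.22 without day 7 replicate 2, and 0.14 without the 2 libraries of extreme length index, day 14 replicate 2 and day 7 replicate 2.

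Dendritic cell genes lay below 0 in 11 of 11 cases (median -0.83, and -0.46 and -1.33 without day 14 replicates 1 and 3). Flt3, a growth factor receptor of these cells, was 16.0, 49.3 and 58.2 on day 14 and 132.3, 75.4 and 81.6 on day 7, without overlap (-1.35 ± 0.48, adjusted p = 0.175 by limma; -0.79 without day 14 replicate 1). Xcr1 and Clec9a, which mark cross-presenting dendritic cells, overlapped. Macrophage genes were mixed, with 6 of 15 above 0 and 9 below (median -0.22). The median was 0.11 without day 14 replicate 2, -0.10 without day 7 replicate 3 and -0.58 without day 14 replicate 3. Adgre1, which encodes F4/80, was 1597, 1219 and 2340 on day 14 and 1960, 2531 and 2693 on day 7. Mertk, a receptor for dying cells, was 113.2, 60.7 and 177.9 on day 14 and 161.4, 299.97 and 291.2 on day 7.

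Of 8 mast cell genes 5 lay above 0, near the 46.9% of all genes, with a median of 0.82 and none without overlap or past the test. The median was 0.24 and 1.32 without day 14 replicates 1 and 2, 0.52 without day 7 replicate 1 and 1.43 without the 2 libraries of extreme length index. Mcpt4, a mast cell chymase, was 3586, 938.1 and 3059 on day 14 and 488.9, 1263 and 1776 on day 7. Day 14 replicate 2 fell within the day 7 range and the other day 14 tumours lay above it. Tpsb2, a tryptase, was 5833, 2184 and 4539 on day 14 and 1746 to 2284 on day 7, again with day 14 replicate 2 inside the day 7 range.

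The interferon gamma response was the immune list with the most genes that did not overlap between the days. Of its 22 genes 21 lay below 0 (median -0.92), and in 14 of 22 every day 14 tumour was below every day 7 tumour, beside 7.18% of all genes. None of the 22 passed, and 12 had an unadjusted p under 0.05 (6.73% of all genes). Nlrc5, a transactivator of class I genes, was 611.8, 287.4 and 814.0 on day 14 and 1300, 1142 and 1134 on day 7 (-1.18 ± 0.34, adjusted p = 0.133 by limma; -0.75 without day 14 replicate 2). Gbp4, a guanylate-binding protein, was 343.5, 168.7 and 496.0 on day 14 and 1021, 837.2 and 813.6 on day 7 (-1.53 ± 0.59, adjusted p = 0.202 by limma). Irf1, a transcription factor of the interferon response, was 2652, 2822 and 3205 on day 14 and 4431, 2527 and 3110 on day 7, which overlapped. With the length index as a covariate the median of the list was -0.85, and over 16 alternative settings it ran between -1.11 and -0.71.

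Promoter windows are shown for 4 interferon-responsive genes. Irf1, Serpina3g and Gbp2 are of the interferon gamma list, where 21 of 22 genes lay below 0. Stat2 is of the type I list described below, where 18 of 22 lay below 0 and 4 above. They are RefSeq sequences on GRCm38.p6, printed in the direction of transcription, with 30 bases kept on each side of a motif where the window held them. Capitals mark the motif: TTCNNNGAA, the palindrome of interferon gamma activated sites, in Irf1 and Serpina3g, and the interferon-stimulated response element (GAAA, any 2 bases, GAAA, on either strand) in Gbp2 and Stat2.
Irf1: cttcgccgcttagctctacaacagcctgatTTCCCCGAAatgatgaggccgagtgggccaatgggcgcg
Serpina3g: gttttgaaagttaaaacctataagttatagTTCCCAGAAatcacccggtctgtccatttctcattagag
Gbp2: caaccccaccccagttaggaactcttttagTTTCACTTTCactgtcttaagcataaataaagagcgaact
Stat2: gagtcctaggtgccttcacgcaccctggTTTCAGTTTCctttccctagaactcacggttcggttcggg
The windows lie at chr11:53769894-53769962 for Irf1, chr12:104236084-104236152 for Serpina3g, chr3:142620574-142620643 for Gbp2 and chr10:128270248-128270315 for Stat2, all on the plus strand. The motifs begin 90, 33, 59 and 222 bases before the annotated start in that order. Searched on both strands in windows of 250 bases before to 50 after the start, TTCNNNGAA was found in 9 of the 16 interferon gamma response genes with a RefSeq window and in 8.53% of 11794 tested genes with one. The response element was found in 11 of the same 16 genes and in 3.8% of all. The 2 motifs can overlap, and these were chosen for this list after its values were seen.

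The 4 genes with printed windows differed in how far the days lay apart. Serpina3g, a serine protease inhibitor, was 189.1, 84.9 and 437.2 on day 14 and 907.5, 376.1 and 533.2 on day 7, where day 14 replicate 3 overlapped. Gbp2 was 3598, 2117 and 3778 on day 14 and 7743, 4704 and 4320 on day 7, and Stat2, a subunit of the type I interferon transcription complex, was 701.8, 404.4 and 838.5 on day 14 and 1030, 950.6 and 944.8 on day 7. Gbp2 and Stat2 did not overlap, while Irf1 and Serpina3g did.

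Of 22 type I interferon response genes 18 lay below 0 (median -0.44, and -0.26 without day 7 replicate 1), 3 of 22 of them without overlap beside 7.18% of all genes. Isg15, a ubiquitin-like modifier, was 505.5, 867.2 and 407.1 on day 14 and 585.6, 423.0 and 364.6 on day 7, a difference of 0.33 ± 0.38. Ifit1, an RNA-binding antiviral protein, was 423.3, 565.5 and 309.9 on day 14 and 962.7, 969.6 and 380.2 on day 7. Oas2, an oligoadenylate synthetase, was 86.4, 48.1 and 234.0 on day 14 and 237.3, 213.2 and 302.0 on day 7 (-1.31 ± 0.49, adjusted p = 0.186 by limma; -0.80 without day 14 replicate 2). The interferon-stimulated response element was found in 10 of the 17 genes of this list that had a window, Isg15 and Ifit1 among them.

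Most antigen presentation genes lay below 0. Ciita, the master regulator of class II genes (chromosome 16, 10480059 to 10528418 on GRCm38), was 101.8, 37.6 and 363.3 in day 14 tumours and 517.0, 428.3 and 475.3 in day 7 tumours. Every day 14 tumour was below every day 7 tumour (-2.06 ± 0.55, adjusted p = 0.119 by limma), and replicate 3 was the nearest to the day 7 range. The difference was -1.29 without day 14 replicate 2 (adjusted p = 0.891 by limma) and -1.36 without the replicate 2 libraries of both days. The class II chain H2-Aa was 3789, 3651 and 12096 on day 14 and 12732, 7258 and 10767 on day 7, where replicate 3 of day 14 lay inside the day 7 range. All 8 class II genes were below 0 (median -0.82), 1 of 8 without overlap beside 7.18% of all genes. The median was -1.45 with the length index as a covariate, -0.53 and -1.39 without day 14 replicates 2 and 3. Of 12 class I genes 10 lay below 0 (median -0.44, -0.72 with the length index as a covariate and -0.16 without day 7 replicate 1). H2-K1, a class I heavy chain, was 11226, 10210 and 20895 on day 14 and 36249, 15029 and 18729 on day 7, and B2m, the shared light chain, was 19257, 22356 and 23438 on day 14 and 33671, 23162 and 22057 on day 7. H2-K1 has near-identical relatives that can share its reads. In vehicle tumours of days 1, 7 and 14 the log2 level of Ciita was 9.07 ± 0.56, 8.89 ± 0.14 and 6.82 ± 1.62 (SD, n = 3 each).

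The 4 genes of the CXCR3 axis and the 10 complement genes lay below 0, while 11 neutrophil chemoattractant and inflammatory cytokine genes were divided, 5 above and 6 below 0 (median -0.06). Cxcl9, a ligand that draws CXCR3-bearing T cells, was 1063, 343.6 and 2297 on day 14 and 3129, 2038 and 2499 on day 7 (-1.41 ± 0.61, adjusted p = 0.245 by limma; -0.69 without day 14 replicate 2). Cxcl10, a second ligand, was 365.9, 386.5 and 504.9 on day 14 and 836.0, 563.0 and 545.3 on day 7, without overlap. Cxcr3, the receptor, was 30.5, 34.8 and 79.3 on day 14 and 77.9, 87.2 and 82.5 on day 7. The complement median was -0.78, with 3 of 10 lower without overlap beside 7.18% of all genes. C3, the central complement component, was 8507, 5141 and 7716 on day 14 and 37862, 8701 and 10854 on day 7, and Cfb, its partner in the alternative pathway, was 800.3, 434.7 and 1248 on day 14 and 3301, 1283 and 1751 on day 7. Day 7 replicate 1 was the highest for both genes, and without it the C3 difference was -0.48.

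**Figure D2:**
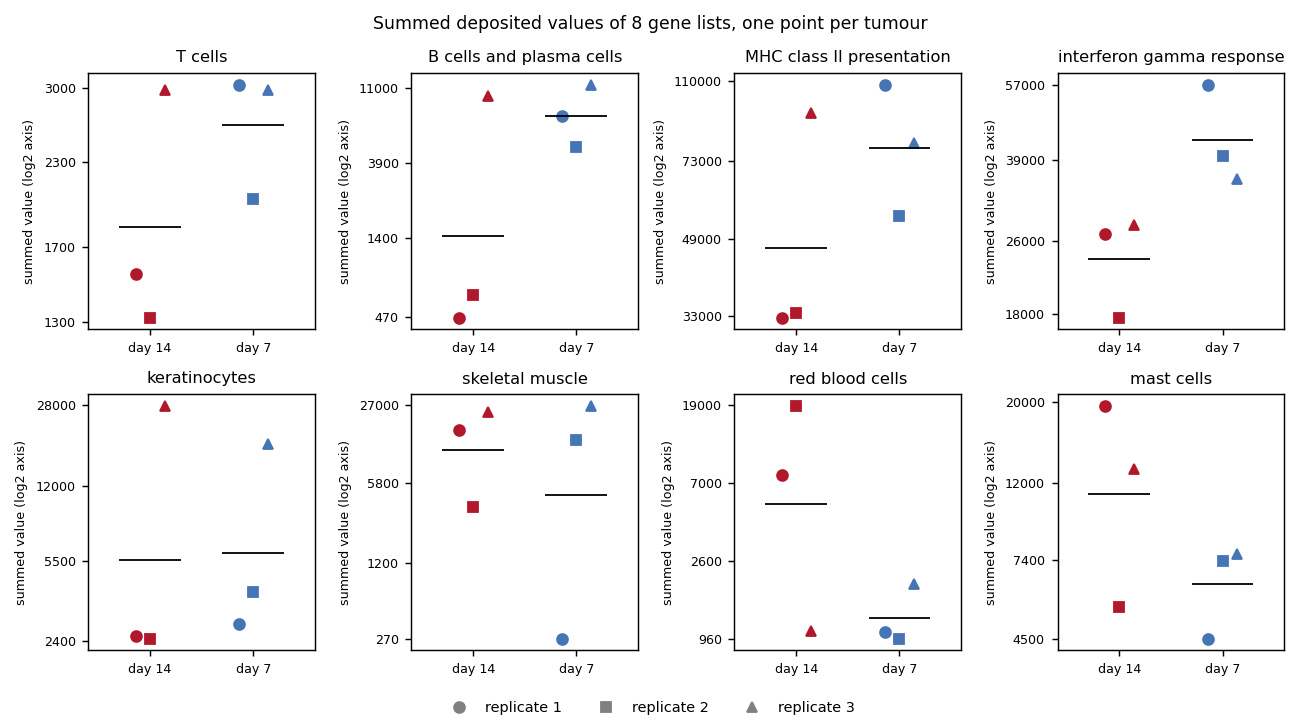
Summed deposited values (vertical axis, log2 spacing) of 8 gene lists in each of the 3 day 14 and 3 day 7 vehicle tumours; each symbol is a tumour and each line the mean on the log2(value + 1) scale. Interferon gamma response genes summed to 17645 to 28198 on day 14 and 35424 to 56965 on day 7 with no overlap, while T cell, B cell and class II sums of day 14 replicate 3 sat within the day 7 range, and keratinocyte sums were highest in replicate 3 of both days.

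Ribosomal protein genes stood higher on day 14 together, and none passed. Rpl22, a large-subunit ribosomal protein that also binds RNA (chromosome 4, 152325742 to 152334071 on GRCm38), was 4689, 7564 and 4686 in day 14 tumours and 3188, 2383 and 2710 in day 7 tumours. The groups did not overlap, and the difference of 1.00 ± 0.18 had the smallest adjusted p of all genes (0.0968 by limma). In the authors' log2 FPKM table the difference was 0.52 (adjusted p = 0.145 by limma). Its paralog Rpl22l1 was 1509, 2972 and 1427 on day 14 and 1194, 971.7 and 1027 on day 7 (0.81 ± 0.19, adjusted p = 0.119 by limma; 0.47 without day 14 replicate 2). Rps7, a small-subunit protein, was 33863, 58624 and 24489 on day 14 and 21865, 19899 and 21047 on day 7. Day 14 replicate 2 was the highest of the 6 for all 3 genes. In vehicle tumours of days 1, 7 and 14 the log2 level of Rpl22 was 12.14 ± 0.26, 11.42 ± 0.21 and 12.43 ± 0.40 (SD, n = 3 each), so day 1 lay between the others.

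All 32 cytosolic ribosomal protein genes lay above 0 (median 0.73), and in 27 of 32 every day 14 tumour exceeded every day 7 tumour, beside 8.2% of all genes. The list had a median exon length of 2002 bases, and most genes that short lay above 0, as given further on. Small nucleolar RNA host genes, whose introns carry guides for ribosomal RNA modification, lay above 0 in 10 of 10 cases (median 0.62), 8 without overlap. Gas5, a host gene of the same terminal oligopyrimidine class as ribosomal protein genes, was 5293, 7424 and 3848 on day 14 and 3698, 3346 and 3580 on day 7 (0.59 ± 0.15, adjusted p = 0.119 by limma; 0.35 without day 14 replicate 2). Snhg6 was 431.8, 762.3 and 511.7 on day 14 and 313.3, 275.7 and 369.7 on day 7.

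Nuclear-encoded oxidative phosphorylation subunits lay above 0 in 22 of 22 cases (median 0.69), 15 without overlap beside 8.2% of all genes. Cox7c, a small cytochrome c oxidase subunit, was 2879, 5314 and 2569 on day 14 and 2507, 1707 and 2007 on day 7 (0.73 ± 0.19, adjusted p = 0.119 by limma; 0.41 without day 14 replicate 2). Of 14 proteasome genes 13 lay above 0 (median 0.42), 5 without overlap beside the same 8.2%. Psma4, a core subunit, was 3754, 4260 and 2962 on day 14 and 2820, 2608 and 2714 on day 7. The 10 mitochondrially encoded genes did not share this side, with 4 above and 6 below 0 (median -0.03). Without day 14 replicate 3, 14 of the 32 ribosomal genes, 6 of the 10 host genes, 8 of the 22 respiratory genes and 5 of the 14 proteasome genes rose, beside 4.08% of all genes in that fit, and none of them fell. Without day 14 replicate 2 the medians of the ribosomal and respiratory genes were 0.48 and 0.39.

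The difference between the days moved with transcript length over all genes. For each library, the log2 level of every gene minus its mean over libraries was regressed on log2 exon length, and the slope is its transcript-length index, from 11491 genes. It was 0.015, -0.157 and -0.077 in day 14 tumours and 0.032, 0.333 and 0.082 in day 7 tumours, with no overlap. The other 36 libraries ran from -0.411 to 0.326. In 5 equal groups of genes by exon length the median difference was 0.38 in the shortest genes, then 0.13, -0.02, -0.15 and -0.32 in the longest. The shortest group spanned 151 to 2563 bases, and 15.9% of its genes lay below 0. Median exon lengths of the ribosomal, host and respiratory lists were 2002, 1544 and 1794 bases, within that span. With the index as a covariate the 5 medians were 0.10, 0.01, 0.01, 0.02 and 0.08. The index was computed from these same genes and values, so the covariate removes the trend with length by construction. With it the median of the ribosomal genes was 0.29, that of the host genes 0.44 and that of the respiratory genes 0.23. Without the 2 libraries of extreme index the medians were 0.35, 0.34 and 0.25 in the same order of lists.

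**Figure D3:**
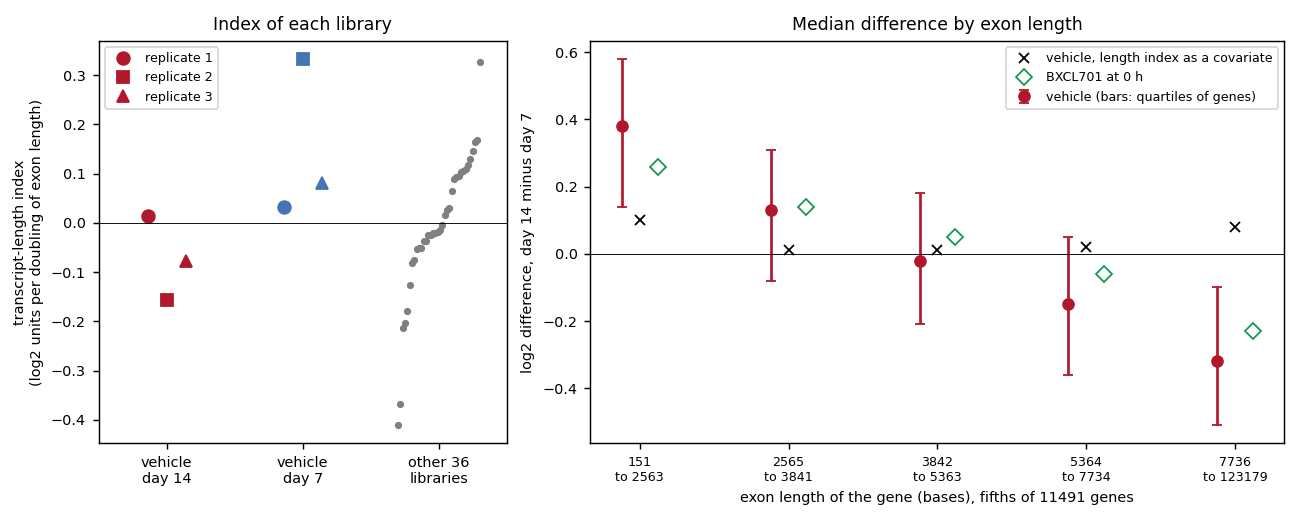
Left, the transcript-length index (log2 units per doubling of exon length) of each day 14 and day 7 vehicle tumour beside the other 36 libraries; right, the median log2 difference, day 14 minus day 7, in 5 equal groups of genes by exon length, with bars for the quartiles of genes. The vehicle medians step down from 0.38 in the shortest genes to -0.32 in the longest, and the BXCL701 medians step down from 0.26 to -0.23. The vehicle medians lie between 0.01 and 0.10 with the index as a covariate, which removes the trend by construction.

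The 15 genes of smallest p in each direction differed in length. Those higher on day 14 had a median exon length of 1838 bases and those lower 11355 bases. In each direction 13 of 15 did not overlap between the days, beside 8.2% of all genes higher and 7.18% lower. The genes were picked by the p of this same comparison, so that count is no separate result. After Rpl22, the genes higher on day 14 included Naca, a chaperone of nascent chains, at 17044, 21660 and 10777 on day 14 and 9753, 9082 and 9475 on day 7 (0.75 ± 0.15, adjusted p = 0.119 by limma). Ostc, an oligosaccharyltransferase subunit, Isca2, an iron-sulfur cluster assembly factor, Sap30, a histone deacetylase complex subunit, Mrps33, a mitochondrial ribosomal protein, Gpx8, an endoplasmic reticulum peroxidase, and Cwc15, a spliceosome protein, had differences of 0.62 to 0.79. Tmem251, Tmem9b, Ypel5 and Cfdp1 lay at 0.45 to 0.71. Rpl39-ps, at 0.86, is a processed pseudogene that may share reads with Rpl39.

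Genes lower on day 14 were led by Ubr4, a very large ubiquitin ligase, at 2956, 1884 and 3722 on day 14 and 4570, 5999 and 4720 on day 7 (-0.88 ± 0.19, adjusted p = 0.119 by limma), and its difference in the log2 FPKM table was -0.21. Helz2, a helicase and nuclear receptor coactivator, was 519.0, 290.2 and 926.1 on day 14 and 1144, 1316 and 1204 on day 7. Kmt2d, a histone H3 lysine 4 methyltransferase of enhancers, had the widest difference among these 15, at 1983, 329.5 and 2210 on day 14 and 4413, 7511 and 4466 on day 7 (-2.22 ± 0.54, adjusted p = 0.119 by limma). Its lowest value was in day 14 replicate 2 and its highest in day 7 replicate 2, the libraries of extreme length index, and without those 2 the difference was -1.08. In the log2 FPKM table it was -1.01. Cytoskeletal Sptan1 and Plec, the chromatin proteins Srcap and Brpf3, the DNA repair scaffold Slx4, the centriole protein Cep152 and the cation channel Trpm2 lay at -0.53 to -1.22, with Sptan1 at 0.19 in the log2 FPKM table. Mapkbp1, Otud3, Uhrf1bp1, Akna and Zfp142 lay at -0.70 to -0.90. All of these genes passed in the fit without day 14 replicate 3. They were picked by the p of this comparison, and that fit reuses the same tumours, so passing there is no separate result.

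With the length index as a covariate, 14 genes rose (0.0843%) and 4 fell (0.0241%). Those named here were chosen after their values were seen. Rpl22 was among them at 0.74 (adjusted p = 0.0325 by limma), with Sox9, a transcription factor of ductal and progenitor cells, at 1.18 against 0.63 without the covariate, and Tiparp, an aryl hydrocarbon receptor target, at 1.00 against 0.46. Of the 18 genes 12 overlapped between the days, and 3 of those that rose lay below 0 without the covariate. Rxra, a nuclear receptor, fell by 0.49 and Polg, the mitochondrial DNA polymerase, fell by 0.47. Sox9 was 1060, 1700 and 893.8 on day 14 and 810.2, 846.5 and 631.5 on day 7, without overlap, and Rxra was 1337, 1169 and 1472 on day 14 and 1714, 1537 and 1783 on day 7, also without overlap.

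Hypoxia genes stood mostly higher on day 14, and none passed. Of 15 genes 11 lay above 0 (median 0.26, and 0.12 without day 7 replicate 3), 4 of 15 without overlap beside 8.2% of all genes. Bnip3, a mitophagy receptor, was 2424, 2792 and 1908 in day 14 tumours and 1319, 1456 and 1269 in day 7 tumours (0.80 ± 0.32, adjusted p = 0.216 by limma; 0.38 in the log2 FPKM table). Ankrd37 was 444.7, 573.9 and 368.3 on day 14 and 292.0, 215.6 and 212.8 on day 7, and Car9, a carbonic anhydrase, was 901.3, 759.6 and 756.8 on day 14 and 746.8, 566.0 and 300.4 on day 7. Egln1, an oxygen-sensing prolyl hydroxylase, was 2753, 2673 and 2627 on day 14 and 2217, 2257 and 2122 on day 7, a small separation with a difference of 0.29 ± 0.18. Vegfa, the vessel growth factor, overlapped at 2914, 3264 and 3067 on day 14 and 2824, 3343 and 2690 on day 7. With the length index as a covariate the list's median was 0.36.

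Windows with ACGTG, the core of the hypoxia response element, are shown for 2 of the genes that did not overlap. Bnip3 lies at chr7:138909580-138909644 and Egln1 at chr8:124949288-124949352, both on the minus strand of GRCm38.p6, and capitals mark the first match, on either strand.
Bnip3: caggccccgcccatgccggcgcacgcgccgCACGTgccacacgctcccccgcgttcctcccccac
Egln1: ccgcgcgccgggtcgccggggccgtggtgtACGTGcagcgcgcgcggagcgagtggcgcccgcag
The matches begin 108 and 68 bases before the annotated start. In Bnip3 2 matches on opposite strands overlap. ACGTG was found in 10 of the 14 hypoxia genes with a window and in 27.6% of 11794 tested genes.

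Of 22 mitotic genes 19 lay below 0 (median -0.23), and 7 of 22 lay below without overlap beside 7.18% of all genes. None passed, and 2 of 22 had an unadjusted p under 0.05 beside 6.73% of all genes. Mki67, which encodes the proliferation antigen Ki-67, was 3571, 2717 and 2756 on day 14 and 3642, 6265 and 3734 on day 7 (-0.56 ± 0.33, adjusted p = 0.411 by limma; -0.04 with the length index as a covariate and -0.30 without day 7 replicate 2). Top2a, the mitotic topoisomerase, was 5042, 4854 and 4121 on day 14 and 6156, 7409 and 5278 on day 7. Foxm1, a transcription factor of mitotic genes, was 1346, 1028 and 1727 on day 14 and 1980, 1768 and 1831 on day 7. With the length index as a covariate the median of the list was -0.08. Of 17 DNA replication genes 11 lay above 0 (median 0.05, and -0.06 to 0.15 over 16 alternative settings). TTTGAA was found in 11 and CCAAT in 14 of the 16 mitotic genes with a window, beside 14.9% and 42% of all.

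Of 12 p53 target genes 2 lay above without overlap, beside 8.2% of all genes. Cdkn1a, the cell cycle inhibitor p21, was 1850, 1957 and 2267 on day 14 and 1234, 921.0 and 1444 on day 7 (0.77 ± 0.34, adjusted p = 0.255 by limma; 0.22 with the length index as a covariate). Bax, a death effector, was 1926, 2732 and 2014 on day 14 and 1402, 1002 and 1454 on day 7. Of the list 7 genes lay above 0, and the median of 0.03 was at or below 0 after rounding in 4 of 16 alternative settings, at -0.13 in the lowest. Among clock genes Ciart, a repressor of the circadian oscillator, was 99.9, 96.5 and 86.1 on day 14 and 48.9, 48.1 and 48.9 on day 7, with little spread within each day (0.94 ± 0.36, adjusted p = 0.202 by limma). Per2 was 455.9, 362.1 and 302.0 on day 14 and 584.7, 789.0 and 497.1 on day 7, on the other side and also without overlap. The heat shock list had 7 of 10 genes above 0 (median 0.17), and GAANNTTC was found in 7 of its 8 windows and in 7.26% of all.

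The dipeptidyl peptidases that the drug of this study inhibits were measured here without drug. Dpp4 was 35.9, 61.4 and 113.3 on day 14 and 118.2, 104.2 and 159.0 on day 7 (-0.98 ± 0.47, adjusted p = 0.301 by limma; -0.58 without day 14 replicate 1). Dpp8 was 1397, 919.9 and 1003 on day 14 and 1171, 2206 and 1340 on day 7, and Dpp9 was 1770, 1321 and 2158 on day 14 and 2218, 1814 and 1970 on day 7. All 3 overlapped between the days. Among 11 inflammasome genes 8 lay below 0 (median -0.22).

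Markers of muscle, blood and matrix differed widely between single tumours. The 14 skeletal muscle genes lay above 0 in 14 of 14 cases (median 1.63) and their sum was 16590, 3617 and 23717 on day 14 and 270, 13758 and 26707 on day 7. Without day 7 replicate 1, the tumour nearly free of muscle, the median was -0.61. Red blood cell genes lay above 0 in 6 of 6 cases (median 2.05), with sums of 7813, 18756 and 1068 on day 14 and 1046, 965 and 1935 on day 7. Day 14 replicate 3 was again within the day 7 range, and without it 4 of the 6 rose, beside 4.08% of all genes, Hba-a1 by 3.42. The median was 3.21 without that tumour and 1.27 without day 14 replicate 2. Collagen genes lay below 0 in 13 of 15 cases (median -0.35), and the median was 0.09 without day 14 replicate 2, -0.06 without day 7 replicate 3, -0.61 without day 7 replicate 1 and -0.82 without day 14 replicate 3.

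**Figure D4:**
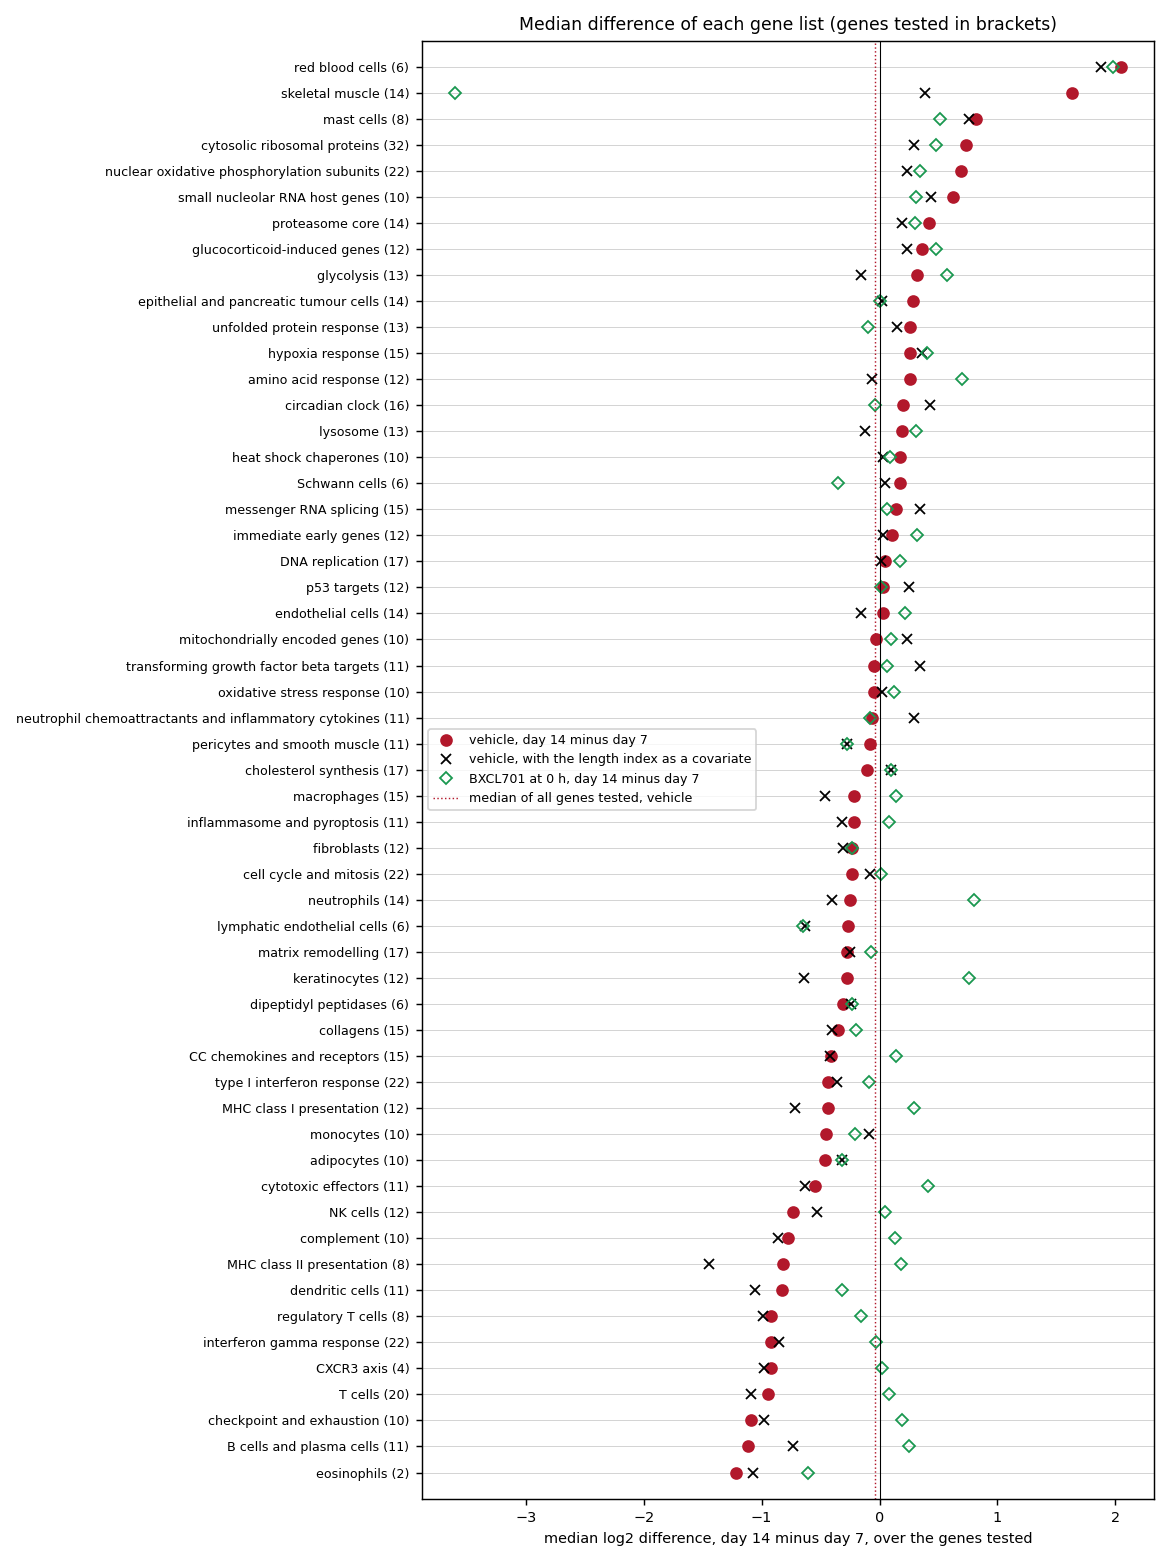
Median log2 difference, day 14 minus day 7 (horizontal axis), of the gene lists with 2 or more genes tested, for vehicle tumours, for vehicle tumours with the length index as a covariate, and for BXCL701 tumours at 0 h; the dotted line is the median of all genes tested in vehicle tumours. The ribosomal list lies at 0.73 in vehicle tumours and 0.48 in BXCL701 tumours, and the T cell list at -0.95 in vehicle tumours and 0.08 in BXCL701 tumours.

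The same day 14 minus day 7 difference was fitted in tumours given BXCL701 at 20 ug per mouse daily and collected at 0 h on the same days (n = 3 each), which share no library with the vehicle tumours. There 0 genes passed (0%), and 865 had an unadjusted p under 0.05 (5.21%). The test of the vehicle difference minus the BXCL701 difference passed in 0 genes by limma, with 460 at an unadjusted p under 0.05 (2.77%). Side by side, the median of the T cell list was -0.95 in vehicle and 0.08 in BXCL701 tumours, that of the interferon gamma list -0.92 and -0.03, that of class II genes -0.82 and 0.18, and that of the ribosomal list 0.73 and 0.48. In the 5 length groups the BXCL701 medians were 0.26, 0.14, 0.05, -0.06 and -0.23.

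The 5 genes of smallest p on each side of that test included 2 neutrophil granule genes. Ngp, a neutrophil granule protein, was 0.61, 3.37 and 0 on day 14 and 0, 1.69 and 1.64 on day 7 in vehicle tumours. In BXCL701 tumours it was 52.8, 57.6 and 15.8 on day 14 and 1.69, 1.38 and 0 on day 7 (vehicle minus BXCL701 -4.34 ± 1.08, adjusted p = 1 by limma). Camp, the cathelicidin of the same granules, was listed at 0 in all 3 day 14 vehicle tumours and at 0, 0 and 0.66 on day 7. Its BXCL701 values were 19.7, 13.9 and 3.84 on day 14 and 0, 0.55 and 0 on day 7. Both genes lay below the filter on low values in all these vehicle tumours and entered the test through other libraries. Their vehicle differences, -0.004 for Ngp and -0.24 for Camp, come from values near 0 and cannot show a change. For these genes the test rests on the BXCL701 difference, 4.34 for Ngp and 3.31 for Camp. Jag2, a Notch ligand, was 361.8, 316.8 and 826.3 on day 14 and 810.5, 827.4 and 664.6 on day 7 in vehicle tumours, and 949.5, 662.0 and 603.0 on day 14 and 622.8, 403.9 and 544.4 on day 7 in BXCL701 tumours. Arsg and Slx4 were the other 2 on that side, at -1.74 and -0.86. On the other side were Nudt2 (0.63), Dmrta2 (2.55), the disulfide isomerase Pdia6 (0.58), Cmc4 (0.90) and the splicing protein Hnrnpc (0.52). Dmrta2 was near the filter on low values, at 6.07, 10.03 and 13.54 on day 14 and 2.17, 1.7 and 7.87 on day 7 in vehicle tumours, which overlapped. In BXCL701 tumours it was 5.98, 3.45 and 3.06 on day 14 and 9.97, 8 and 16.29 on day 7. Nudt2 was 231.1, 302.0 and 239.3 on day 14 and 175.1, 163.9 and 167.7 on day 7 in vehicle tumours, and 139.3, 163.3 and 158.7 on day 14 and 176.2, 120.6 and 184.4 on day 7 in BXCL701 tumours.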

How the data were processed

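RNA sequencing libraries of 42 tumours in 14 groups of 3 were analysed, 6 of them the subject here. The tools named in the submitters' processing notes are Bowtie 0.12.9 and Trimmomatic 0.36, with the build GRCm38. How reads were counted and scaled is not given in the sources used here. A deposited table called a count table held signal values that were not whole numbers (0.081% of values above 0 were whole), scaled by the authors before deposit, so a count test was not used. The authors also deposited log2 FPKM values, used as an alternative with a pseudocount of 0.1.

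Values were log2-transformed after adding 1, and the 16613 of 47729 genes that reached 10 in 3 or more libraries were fitted with limma 3.58.1 (R 4.3.3, trend and robust) over all 14 groups, with 28 residual degrees of freedom and Benjamini-Hochberg adjustment at 0.05. The script was tested on simulated data. The genes named are the 15 smallest p-values in each direction without predicted models, up to 7 genes of each list (the first 3 and the 4 of smallest p) and the 5 smallest p-values on each side of the comparison with BXCL701. The members and lists were chosen with earlier results of these data known. Replicates were numbered in accession order. Values of 1 gene of the interferon gamma list are not reported here.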

Additional observations from a re-analysis of the deposited data

How the results depend on the processing

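Without a filter on low values (29467 genes), 12 genes stood higher and 6 lower on day 14 past the threshold, and with the length index as a covariate 14 and 4; the vehicle minus BXCL701 comparison then gave 1 higher and 1 lower without the filter. Leaving out 1 library at a time gave 0 to 677 higher and 0 to 619 lower, the largest without day 14 replicate 3, and 1 higher without day 7 replicate 3. The cause was not tested. Every other alternative run (pseudocount 5, median-of-ratios factors, log2 FPKM, the 6 libraries alone, vehicle libraries alone, tissue covariates, no trend or robust step, a minimum difference of 1, and, added after seeing the data, without the 2 libraries of extreme length index) gave 0 in both directions. The FPKM table moved the median of all genes to -0.145, against -0.037, and Sptan1 to 0.19 and Vegfa to -0.19. With the length index as a covariate Isg15 was -0.020 and Dpp8 0.13, and Isg15 was -0.026 without the 2 libraries. Ifng was 0.045 with tissue covariates and -0.25 to 0.27 with 1 library left out, and Irf1 -0.36 to 0.041. No paired analysis was possible because the replicate numbers follow accession order and pair no tumours. The number of reads behind the values is unknown.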
